A study of Mus musculus with 8 samples.

Results

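The scavenger and endocytic receptors of macrophages were examined in microglia sorted from mice in which *Smad2* and *Smad3* were targeted for deletion. They were *Mrc1*, *Cd163*, *Stab1*, *Msr1*, *Marco*, *Cd36*, *Scarb1*, *Colec12*, *Lyve1* and *Scarf1*, a list of 10 genes fixed by symbol among the 55573 genes of the count table and found there through their Ensembl identifiers. All 10 were listed, and 9 had enough reads to be tested, the exception being *Marco*. The RNA came from microglia sorted by FACS from the brains of 4 mutant mice (labelled SmadKO, *Smad2/3* fl/fl;*Cx3cr1* Cre) and 4 control mice (labelled WT) at postnatal day 60, with a library of its own for each mouse. The paper describes the sort of its *Smad2/3* mutants by CD45 and CD11b. It names no step there that leaves out other macrophages or monocytes. The labels call the controls wild-type littermates, whereas according to the Methods controls usually had the Cre allele together with 1 floxed copy, so both groups may share Cre inserted at the *Cx3cr1* locus. *Cx3cr1* Cre acts in microglia and in other macrophages of the same lineage, so the deletion can extend beyond microglia.

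Scavenger receptors are surface proteins of macrophages and endothelial cells that bind modified lipoproteins, glycans, collagen fragments, dying cells or microbes. Many of them carry what they bind into the cell, some through coated vesicles. In the brain the mannose receptor and CD163 are known as markers of macrophages of the meninges and perivascular spaces, and resting microglia hold little of either. SMAD2 and SMAD3 are the transcription factors that carry TGFβ signals from the receptor to the nucleus.

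The promoters of members that rose are shown beside that of a member that was not called, so that the sequence around their start sites can be compared. RefSeq windows were taken on GRCm38.p6, the patched form of the build that the authors call mm10. Each runs from 250 bases before to 50 bases after a start site. None was given for *Msr1*, *Scarb1*, *Lyve1* and *Scarf1*, and *Colec12* was left out of this reading. Windows were thus read for 5 of the 10 members. They are chr2:14229164-14229463 (plus strand) for *Mrc1*, chr6:124304401-124304700 (plus strand) for *Cd163*, chr14:31168592-31168891 (minus strand) for *Stab1* and chr5:17835847-17836146 (minus strand) for *Cd36*. The *Cd36* window surrounds a start site inside the annotated gene. Capitals mark the letters CAGAC, the SMAD box, or their reverse complement.
Mrc1: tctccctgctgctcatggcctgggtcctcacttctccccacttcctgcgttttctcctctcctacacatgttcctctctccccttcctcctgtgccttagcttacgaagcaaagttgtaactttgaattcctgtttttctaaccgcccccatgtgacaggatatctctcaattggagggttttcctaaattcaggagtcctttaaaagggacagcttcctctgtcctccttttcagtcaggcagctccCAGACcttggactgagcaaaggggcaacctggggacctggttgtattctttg
Cd163: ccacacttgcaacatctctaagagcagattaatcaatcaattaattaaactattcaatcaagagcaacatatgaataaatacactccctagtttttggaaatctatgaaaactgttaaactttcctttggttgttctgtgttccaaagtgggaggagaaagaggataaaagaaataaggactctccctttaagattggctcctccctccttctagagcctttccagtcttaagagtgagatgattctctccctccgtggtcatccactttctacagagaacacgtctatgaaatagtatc
Stab1: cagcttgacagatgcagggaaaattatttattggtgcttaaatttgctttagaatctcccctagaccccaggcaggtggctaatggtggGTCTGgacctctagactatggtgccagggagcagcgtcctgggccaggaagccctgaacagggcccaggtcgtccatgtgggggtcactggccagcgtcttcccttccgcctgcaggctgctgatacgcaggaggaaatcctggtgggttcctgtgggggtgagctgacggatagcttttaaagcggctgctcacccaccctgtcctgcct
Cd36: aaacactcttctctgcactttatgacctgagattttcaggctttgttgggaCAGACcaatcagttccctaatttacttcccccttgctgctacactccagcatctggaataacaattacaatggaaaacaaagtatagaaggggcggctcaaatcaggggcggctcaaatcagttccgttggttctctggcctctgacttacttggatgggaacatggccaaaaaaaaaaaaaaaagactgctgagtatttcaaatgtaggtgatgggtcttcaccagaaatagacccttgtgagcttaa
The SMAD box lay across the start site of *Mrc1*, from 2 bases before it to the 3rd base after it, and was 161 bases upstream of the *Stab1* start and 199 bases upstream of the *Cd36* start. The *Cd163* window held none, and that of *Marco* held 1. These 5 letters occur on either strand in 49.6% of the 32851 RefSeq promoters, beside 4 of the 5 windows read for members. The letters GAGGAAGT (PU.1), TGTGGTT (RUNX), TGANTCA (AP-1) and TGCTGAC (MAF), factors that act in macrophages, were each in 3.2% to 7.81% of all promoters and, on either strand, in none of the 5 windows. No motif match overlapped another. The windows differed in base composition, with 38% G and C in *Cd163*, 43% in *Cd36*, 50.3% in *Mrc1* and 57.3% in *Stab1*, beside a median of 52.7% over all promoters.

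The targeted genes were read first, with reads summed over whole genes, exons that were not floxed among them. *Smad3* was 39.5, 56.9, 49 and 49.2 CPM (counts scaled to the library size and adjusted between libraries by TMM) in control replicates 1 to 4 and 15.1, 9.61, 35.1 and 17.5 CPM in mutant replicates 1 to 4. All mutants lay below all controls, a change of -1.33 on the log2 scale (standard error 0.36, adjusted p = 0.0429, edgeR's quasi-likelihood test with Benjamini-Hochberg adjustment, as for every adjusted p here unless stated otherwise). The adjusted p was between 0.0565 and 0.11 without any 1 of the 4 controls or of mutant replicates 1, 2 and 4, and 0.00432 without mutant replicate 3. *Smad2* was 62.7 to 92.4 CPM in controls, 42.7 to 75.9 CPM in mutants and not called (log2 fold change -0.34, standard error 0.22, adjusted p = 0.34). Libraries held 35639502 to 41946479 counts, and 878 genes were called higher and 1607 lower in mutants. The 9 microglia markers all fell, from 33402 to 50889 CPM in the sum over controls to 5466 to 8008 CPM in mutants. They fell to different degrees. *Cx3cr1* and *Csf1r* were still at least 1278 CPM in every mutant. Cre is inserted at the *Cx3cr1* locus in mutants, and the part of that insertion in the fall of *Cx3cr1* was not tested. *Sall1* went from 165 to 239 CPM in controls to 0.208 to 5.08 CPM in mutants, and *Siglech* from 1689 to 2951 CPM to 4.41 to 38.8 CPM. *Xist* was 99.5 to 183 CPM in controls and at most 0.562 CPM in mutants, and the Y-linked *Ddx3y* was at most 0.224 CPM in controls and 9.74 to 59.8 CPM in mutants. Sex and genotype therefore cannot be told apart in any comparison here, and all 10 members lie on autosomes.

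Of the 9 members tested, 5 were called higher in mutants and none lower by edgeR, and 6 were called higher and none lower by DESeq2. By edgeR 6 had an unadjusted p under 0.05 in the direction of higher and none in the direction of lower. Over all 20153 genes tested, 4.36% were called higher and 7.97% lower. The 5 called members, *Mrc1*, *Cd163*, *Stab1*, *Msr1* and *Scarb1*, were also those whose 4 mutant values lay above all 4 control values, which held for 9.04% of all tested genes, while 13% lay wholly below. None of the 9 members lay wholly below the controls, and the 4 tested members without a call had log2 fold changes above 0, from 0.46 to 1.86. Among these 4, *Lyve1* had an unadjusted p of 0.0227 by edgeR's quasi-likelihood test, and the others had 0.0534 or more. In bulk RNA, fewer cells of a type and less RNA per cell cannot be told apart, and the same holds for more cells or more RNA.

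**Figure D1:**
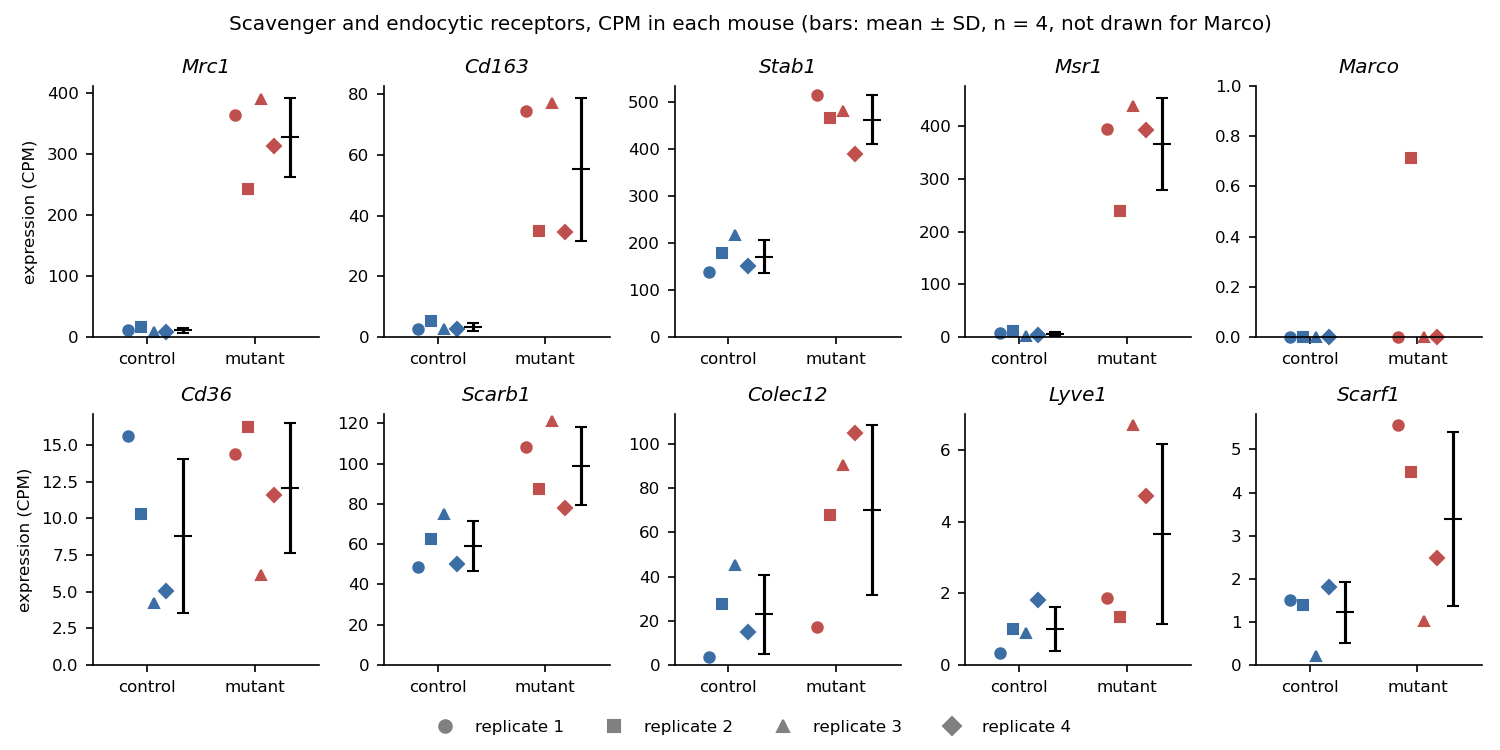
CPM of each member (y axis, linear, from 0) in the 4 control and 4 mutant mice, with symbols for the replicate numbers and bars for the mean ± SD of each group (n = 4). *Mrc1*, *Cd163*, *Msr1*, *Stab1* and *Scarb1* have all mutant points above all control points, *Marco* has a single point off 0, and the points of the other members overlap.

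*Mrc1* (ENSMUSG00000026712), which encodes the mannose receptor CD206, binds mannose-ended glycans and collagen and recycles through endosomes. It lies on chromosome 2 from 14229392 to 14332057 of GRCm38. It was 11.1, 16.8, 7.81 and 8.82 CPM in the 4 controls and 364, 243, 391 and 313 CPM in the 4 mutants. The lowest mutant was 14.5 times the highest control, and the ratio of the group means was 29.5 (log2 fold change 4.88, standard error 0.31, adjusted p = 4.8e-05). Its relative spread in mutants was smaller than in controls, with coefficients of variation of 19.8% and 36.2%.

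*Cd163* (ENSMUSG00000008845) encodes the receptor that clears complexes of haemoglobin with haptoglobin and lies on chromosome 6 from 124304656 to 124330527. It was 2.59, 5.44, 2.66 and 2.56 CPM in controls and 74.3, 35, 76.9 and 34.6 CPM in mutants. The mutants fell into a higher pair, replicates 1 and 3, and a lower pair, replicates 2 and 4, and even the lower pair was at least 6.36 times the highest control. The log2 fold change came to 4.06 (standard error 0.42, adjusted p = 4.1e-04).

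*Msr1* (ENSMUSG00000025044) encodes class A scavenger receptor 1, a trimeric receptor for oxidized lipoproteins and other polyanions, and lies on chromosome 8 from 39581685 to 39642673. It had the largest log2 fold change of the 9 tested members. Its level was 7.24, 11.8, 2.99 and 4.17 CPM in controls and 395, 240, 439 and 394 CPM in mutants. The lowest mutant was 20.3 times the highest control, and the log2 fold change came to 5.80 (standard error 0.48, adjusted p = 1.3e-04). As for *Mrc1*, mutant replicate 2 was the lowest mutant and mutant replicate 3 the highest.

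*Marco* and *Colec12* are the other class A receptors of the list. *Marco* (ENSMUSG00000026390), a receptor of tissue macrophages for bacteria and particles, lies on chromosome 1 from 120474538 to 120505024 and had no count in 7 of the 8 libraries. Mutant replicate 2 held 33 counts, or 0.713 CPM. A count of 0 allows up to 3 counts in a library, so a trace in the other libraries was not detectable at this depth. No fold change was computed for it.

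*Colec12* (ENSMUSG00000036103), a collectin with a collagen stalk that is known from vascular and stromal cells as well as macrophages, lies on chromosome 18 from 9707595 to 9882644. It was 3.7, 27.8, 45.4 and 14.7 CPM in controls and 17.3, 67.7, 90.5 and 105 CPM in mutants. Of the 4 mutants, 3 were above all controls, but mutant replicate 1 was below control replicates 2 and 3, and the log2 difference of 1.61 (standard error 0.73, adjusted p = 0.181) was not called. In both groups replicate 1 was the lowest for *Colec12*, and in both it held the most neural RNA, with 5147 CPM summed over 9 neural cell markers in control replicate 1 and 4221 CPM in mutant replicate 1, against 694 to 1815 CPM in the other controls and 1259 to 2301 CPM in the other mutants. The part of neural RNA in the level of *Colec12* was not tested. Without both of these libraries, a choice made after the values had been seen, the log2 fold change was 1.58 (adjusted p = 0.0559). Of the 50-base words of its transcripts, 4.33% occur in transcripts of other genes, the highest share of any member.

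**Figure D2:**
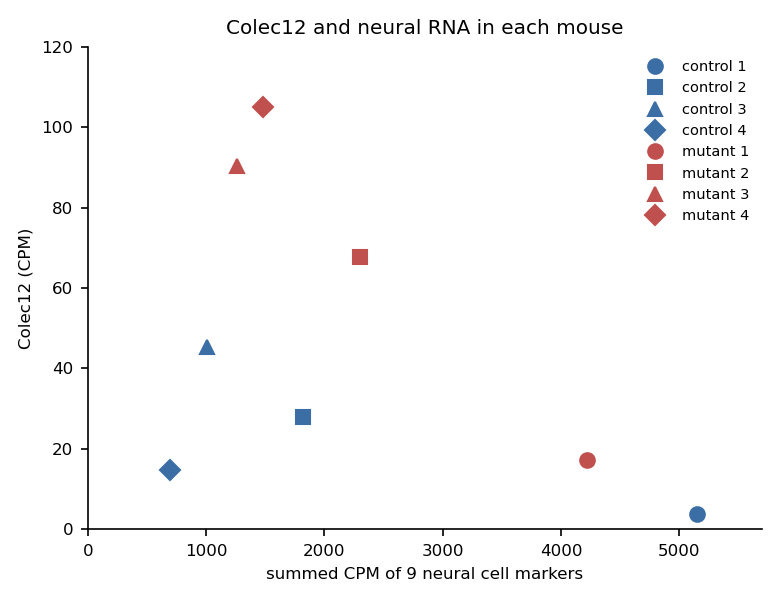
CPM of *Colec12* (y axis) against the summed CPM of 9 neural cell markers (x axis) in each of the 8 mice, both linear. Replicate 1 of each group lies at the far right with the lowest *Colec12* value of its group, while control replicate 4 combines the lowest neural sum with 14.7 CPM of *Colec12*.

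*Scarb1* and *Cd36* form the class B receptors of the list, which exchange or take up lipids, *Scarb1* as a receptor for high-density lipoprotein and *Cd36* as one for fatty acids and oxidized lipoprotein. *Scarb1* (ENSMUSG00000037936), on chromosome 5 from 125277087 to 125341094, was 48.6, 62.3, 75.1 and 50.2 CPM in controls and 108, 87.5, 121 and 78.1 CPM in mutants. All mutants were above all controls, but the lowest mutant was only 1.04 times the highest control, and the call was close to the threshold (log2 fold change 0.74, standard error 0.20, adjusted p = 0.045). The call was lost without any 1 of control replicates 1, 2 and 4 or of mutant replicates 1, 2 and 3, at adjusted p between 0.0722 and 0.101, and without the filter on low counts, at adjusted p = 0.0753. *Cd36* (ENSMUSG00000002944), on the same chromosome from 17781690 to 17888801, was 15.6, 10.3, 4.2 and 5.06 CPM in controls and 14.4, 16.2, 6.1 and 11.6 CPM in mutants. The highest control exceeded all but 1 mutant, and the log2 difference of 0.46 (standard error 0.47, adjusted p = 0.573) did not exceed the spread between mice.

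*Stab1*, *Lyve1* and *Scarf1* are receptors that endothelial cells share with macrophages. *Stab1* (ENSMUSG00000042286) encodes stabilin-1, which takes up modified lipoprotein and the matrix protein SPARC, and lies on chromosome 14 from 31139013 to 31168641. It was 139, 178, 217 and 151 CPM in controls and 514, 466, 481 and 390 CPM in mutants. It was thus present in every control, and its lowest mutant was 1.79 times its highest control. Its log2 fold change came to 1.43 (standard error 0.18, adjusted p = 0.00119), with coefficients of variation of 20.2% in controls and 11.4% in mutants. Of its exonic bases 1.09% overlap *Nt5dc2* on the other strand, and the counts do not separate strands.

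*Lyve1* (ENSMUSG00000030787), the hyaluronan receptor of lymphatic endothelium and of some perivascular macrophages, lies on chromosome 7 from 110850607 to 110863239 and was low in every library. It was 0.336, 0.989, 0.895 and 1.8 CPM in controls and 1.87, 1.34, 6.69 and 4.72 CPM in mutants. In 3 of the 4 mutants it was above all controls, and the log2 difference of 1.86 (standard error 0.68, adjusted p = 0.109) was called by DESeq2 (adjusted p = 0.0333) but not by edgeR. *Scarf1* (ENSMUSG00000038188), a class F receptor that endothelial cells and macrophages use to clear dying cells, lies on chromosome 11 from 75513540 to 75526582. It was 1.5, 1.38, 0.196 and 1.8 CPM in controls and 5.56, 4.47, 1.03 and 2.48 CPM in mutants, with 3 mutants above all controls and a log2 difference of 1.47 (standard error 0.73, adjusted p = 0.22). Both genes were under 10 CPM in every library, with as few as 13 counts of *Lyve1* and 7 of *Scarf1* in a control. Their values also differed widely between mice, with coefficients of variation of 68.6% and 59.7% in mutants.

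Levels of different genes were compared as CPM per kilobase of exon. In controls *Stab1* was the highest member at 16.7 ± 3.36 (SD, n = 4) and *Scarb1* the next at 6.95 ± 1.45, and the ranges of the 2 over mice did not overlap with each other or with any lower member. *Colec12*, *Cd36*, *Mrc1*, *Msr1*, *Cd163*, *Scarf1* and *Lyve1* followed at mean levels from 2.63 down to 0.345, and the ranges of each neighbouring pair among these 7 overlapped. In mutants *Msr1* was highest at 57.8 ± 13.7, with *Mrc1* at 51.5 ± 10.2 and *Stab1* at 45 ± 5.11, and the ranges of neighbours among these 3 overlapped. They stood clear of *Scarb1* at 11.6 ± 2.29, whose range overlapped that of *Cd163* at 10.1 ± 4.32, and *Colec12* followed at 8.04 ± 4.41. Summed over the 10 members, the level per kilobase was 32.8 ± 5.94 in controls and 190 ± 29.3 in mutants. *Stab1* took 50.7% ± 3.76 of that sum in controls and 24% ± 4.1 in mutants, and *Scarb1* 19.8% to 22.7% and 5.04% to 6.74% over mice, although both were called higher. *Msr1* went from 3.18% ± 1.71 to 30.2% ± 3.89 of the sum and *Mrc1* from 5.38% ± 1.72 to 27% ± 1.38. These shares are given as a description, with no test.

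**Figure D3:**
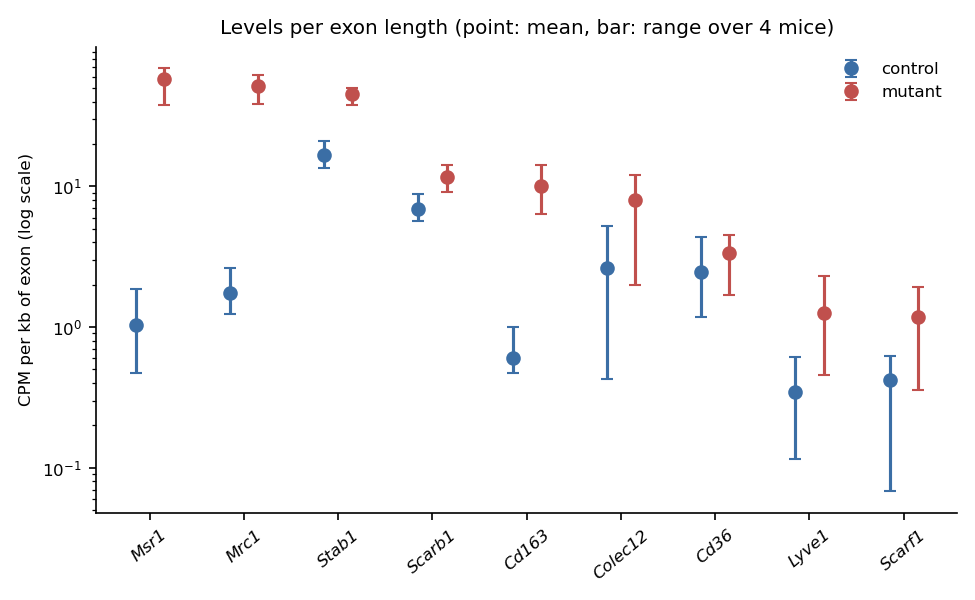
CPM per kilobase of exon (y axis, log scale) for 9 members in controls and mutants, as the mean (point) and the range over 4 mice (bar), in the order of the mutant means, without *Marco*, which was at 0 in 7 libraries. *Stab1* and *Scarb1* lead in controls, and *Msr1*, *Mrc1* and *Stab1* in mutants.

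The order of the mice within a group differed between members. Among mutants, replicate 3 was the highest of the 4 in 5 of the 9 tested members (*Mrc1*, *Cd163*, *Msr1*, *Scarb1* and *Lyve1*) but the lowest in *Cd36* and *Scarf1*, and it was also the mutant with the most *Smad3*, at 35.1 CPM. Mutant replicate 2 was the lowest in *Mrc1*, *Msr1* and *Lyve1*, and mutant replicate 4 in *Cd163*, *Stab1* and *Scarb1*. Among controls, replicate 2 was the highest in *Mrc1*, *Cd163* and *Msr1*, the members that rose most in mutants, and replicate 3 in *Stab1*, *Scarb1* and *Colec12*. Control replicate 1 was the lowest in *Stab1*, *Scarb1*, *Colec12* and *Lyve1*. Control replicate 3 was the lowest in *Mrc1*, *Msr1*, *Cd36* and *Scarf1*, and control replicate 4 in *Cd163*. With 4 mice in a group, these orders are given as a description.

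Markers of other cells that carry these receptors were read beside the members, without any of the members in the lists. Of 7 markers of border macrophages, the macrophages of the meninges, choroid plexus and vessels, 6 were called higher, and their sum went from 45.3 to 81.5 CPM in controls to 1241 to 2209 CPM in mutants. *Pf4* rose from at most 15.4 CPM to at least 652 CPM and *Ms4a7* from at most 5.85 CPM to at least 472 CPM, whereas *F13a1* was 16 to 56.6 CPM in controls and 31.3 to 52.3 CPM in mutants (adjusted p = 0.789). *Folr2*, a marker of perivascular macrophages that rose (adjusted p = 0.0379), stayed under 10 CPM in every mutant, at 0.635 to 6.91 CPM against 0.182 to 0.853 CPM in controls. Of its exonic bases 63.1% overlap *Gm10602* on the other strand, and the counts do not separate strands. The part of border macrophages in the rise of *Mrc1*, *Cd163*, *Msr1* and *Stab1* was not tested. None of the 7 monocyte and neutrophil markers was called by edgeR, while 1 had an unadjusted p under 0.05 and 1 was called by DESeq2, both lower in mutants, with sums of 540 to 1833 CPM in controls and 296 to 875 CPM in mutants. Of 9 endothelial markers, 5 were tested and none was called by edgeR, while 2 had an unadjusted p under 0.05 and 2 were called by DESeq2, all lower in mutants, with sums of 18.5 to 26.8 CPM in controls and 9.47 to 17.1 CPM in mutants. *Tek*, *Tie1* and *Erg* were under 1 CPM in every library, and *Prox1*, a marker of lymphatic endothelium that neural cells also express, was 3.31 to 7.68 CPM in controls and 0.306 to 3.41 CPM in mutants. *Flt1* and *Pdpn* had log2 fold changes above 0 without a call (1.46 and 0.79, adjusted p = 0.44 and 0.408). Of 7 fibroblast and mural markers, 6 were tested and only *Pdgfrb* was called, lower in mutants, and the sums were 16 to 36.9 CPM in controls and 10.9 to 20.1 CPM in mutants. Of the 9 neural cell markers none was called by edgeR or DESeq2 and none had an unadjusted p under 0.05.

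Scavenger receptors outside the list were read in the same fit. Of 16, 13 were tested, 4 were called higher, 1 was called lower and 8 were not called, beside 4.36% higher and 7.97% lower over all genes, with a median log2 fold change of 0.86, beside 1.61 over the 9 members tested and 0.01 over all genes tested. *Stab2*, the paralog of *Stab1* and a hyaluronan receptor of liver and lymph node endothelium, had no count in any control and 113, 109, 146 and 102 counts in the 4 mutants, or 2.35 to 4.07 CPM. Against the 3 counts that a count of 0 over the controls together allows, its mutant mean was at least 152-fold higher (adjusted p = 9.8e-04), and the median of the list is the same with *Stab2* set at that bound. *Cd44*, another hyaluronan receptor, rose by 2.92 on the log2 scale (adjusted p = 9.1e-04), from at most 28.4 CPM to at least 89.4 CPM. *Cxcl16*, a chemokine whose membrane form binds oxidized lipoprotein, rose by 2.83 (adjusted p = 4.8e-05), and 18.3% of its exonic bases overlap *Zmynd15* on the other strand. *Clec7a*, the β-glucan receptor dectin-1, rose by 2.47 (adjusted p = 0.00133). *Scarb2*, the lysosomal relative of *Scarb1* and *Cd36*, fell by 0.73 (adjusted p = 0.0293), from 164 to 258 CPM in controls to 116 to 142 CPM in mutants. The *Scarb2* call was lost without any 1 of control replicates 3 and 4 or of mutant replicates 1, 2 and 4, at adjusted p between 0.0594 and 0.0816.

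Relatives of *Mrc1* and the low-density lipoprotein receptor family were read next, with a few endocytic and sorting receptors outside both. The whole list is called below by the names of the 2 families. Of 15 genes, 12 were tested, 2 were called higher, 2 lower and 8 were not called, beside 4.36% higher and 7.97% lower over all genes, with a median log2 fold change of -0.27. *Lrp6*, a co-receptor for WNT ligands, rose by 1.37 (adjusted p = 0.00783) and *Sorl1*, a sorting receptor of endosomes, by 1.25 (adjusted p = 0.00191). *Sort1*, which encodes the sorting receptor sortilin, belongs to neither family and fell by 2.38 (adjusted p = 4.8e-05). It went from 90.4 to 127 CPM in controls to 20.7 to 21.4 CPM in mutants. *Lrp12* fell by 0.78 (adjusted p = 0.024), and its call was lost without any 1 of control replicates 2, 3 and 4 or of mutant replicates 2 and 4, at adjusted p between 0.0508 and 0.0698.

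The coat and adaptor genes of clathrin-mediated endocytosis are machinery that carries some such receptors inward. Of 16 genes, all tested, 1 was called higher, 1 lower and 14 were not called, counts near the shares over all genes (4.36% higher and 7.97% lower), with a median log2 fold change of -0.06. *Dab2*, an adaptor that links receptors of the low-density lipoprotein family to clathrin and marks perivascular and other tissue macrophages, rose by 3.32 (adjusted p = 6.3e-04), from 19.9 to 54.6 CPM in controls to 278 to 525 CPM in mutants. *Dnm2*, which encodes the dynamin that cuts vesicles from the membrane, fell by 1.18 (adjusted p = 0.0129), from 237 to 398 CPM to 96.6 to 168 CPM. A gene without a call is not shown to be equal in the groups, and DESeq2 called 3 of these genes higher and 2 lower.

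**Figure D4:**
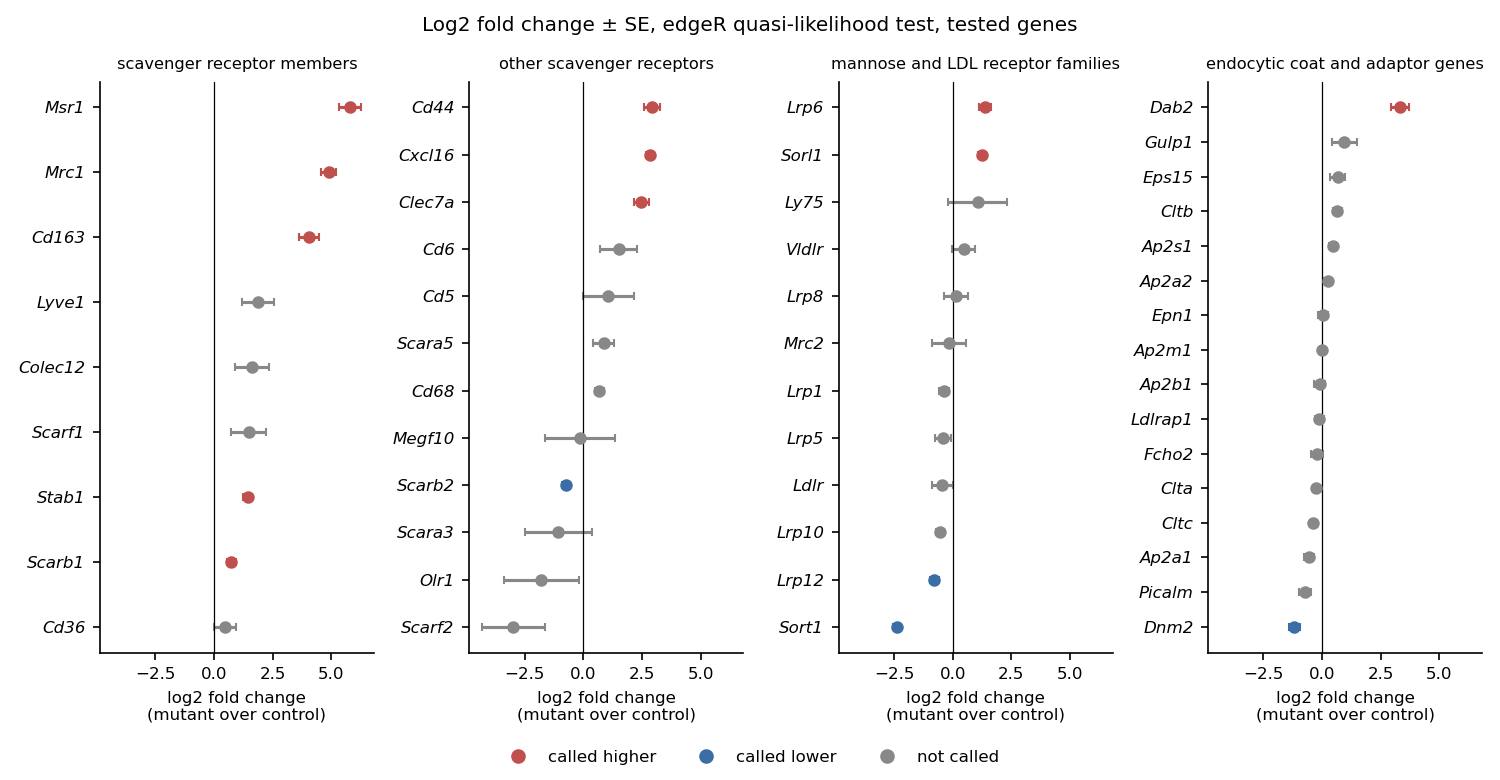
Log2 fold change of mutants over controls with its standard error (x axis) for the tested members and the tested genes of the other 3 lists, colored by call. *Stab2* is not drawn, since its controls are all at 0. All 9 members lie to the right of 0, while the mannose and low-density lipoprotein receptor families and the coat and adaptor genes lie on both sides.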

How the data were processed

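RNA-seq was performed on sorted microglia of 4 mutant and 4 control mice, and groups and replicate numbers were taken from the sample titles. The paper places its Smad2/3 mutant RNA-seq in another deposit. Genotype, cell type and age match here, but its Methods may not hold for these libraries in every detail. By those Methods the authors mapped the reads on mm10 using Rsubread, counted them on genes with featureCounts, without separating strands, and deposited raw counts per Ensembl gene, which were used unchanged. Versions and annotation of that step are not given in the sources used here. The labels name Nextera XT single-end libraries, whereas the Methods describe NEBNext Ultra II paired-end libraries. A deposited table of the authors' own comparison was not used.

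Genes that reached 10 counts in 4 or more of the 8 libraries were tested with edgeR 4.0.16 in R 4.3.3 (TMM, estimateDisp, glmQLFit, glmQLFTest, no block), with Benjamini-Hochberg adjustment over all 20153 genes and a call at an adjusted p under 0.05. Standard errors were obtained by dividing a log2 fold change by the root of its F statistic. The biological coefficient of variation was 0.542 at 35639502 or more counts per library, so differences between mice set the precision. Floors of 3 counts cover counting error only. P-values set the difference between the groups, which is one of genotype and sex together, against the spread between these mice. No 2 libraries of a group agreed within counting noise.

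DESeq2 1.42.0, RLE factors, library totals, other filters, a replicate block and leaving out each library were alternatives. Of the 55573 listed genes, 55480 matched GENCODE M21 (GRCm38), which gave symbols, coordinates and exon lengths. The members and gene lists were chosen with earlier results of these data known. The genes named are all members, *Smad2*, *Smad3*, up to 4 of the largest rises and falls among the calls of each other list, and markers that are at or near 0 or share a cell type with a member. *Xist*, *Ddx3y* and the microglia markers named were added after their values were seen. The other genes that count in the list results are not reported singly here.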

Additional observations from a re-analysis of the deposited data

Results flagged for a closer look

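In 4 sets of values a single mouse lay far from the other 3 of its group, with a gap to the nearest mouse larger than Dixon's 95% critical value, as a share of the group's range. Chance alone flags about 1 in 20 groups, and 44 groups were checked. *Cd163* was highest in control replicate 2, at 5.44 CPM, and *Marco* had reads only in mutant replicate 2, at 0.713 CPM. *Scarb2* was highest among mutants in replicate 3, at 142 CPM, and *Lrp12* was lowest among mutants in replicate 4, at 10.7 CPM.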

How the results depend on the processing

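The calls of *Mrc1*, *Cd163*, *Msr1* and *Stab1* and those of *Stab2*, *Cd44*, *Cxcl16*, *Clec7a*, *Lrp6*, *Sorl1*, *Sort1*, *Dab2* and *Dnm2* held in every alternative that gave a value. Neither these genes nor *Smad2*, *Smad3*, *Cd36*, *Scarb1*, *Colec12*, *Lyve1*, *Scarf1*, *Scarb2* or *Lrp12* changed direction in any, and the marker genes were not refitted. Library totals moved the median log2 fold change of all genes from 0.01 to 0.13. Members called higher were 4 to 6 over the alternatives. With DESeq2, calls over all genes were 2089 higher and 2662 lower, and coat and adaptor genes called were 3 higher and 2 lower. A filter of 10 counts in all 8 libraries gave 2 coat and adaptor genes higher. Without a filter *Smad3* changed by -1.35 (adjusted p = 0.051). Leaving out 1 library in turn gave 525 to 1024 genes higher and 1005 to 1587 lower, 0 to 1 other scavenger receptors lower, 1 to 2 mannose and low-density lipoprotein receptor genes lower, 1 to 2 coat and adaptor genes lower, and -1.79 to -1.11 for *Smad3*. Genes called over all genes fell most without control replicates 2 and 3 and mutant replicate 2 (525, 562 and 573 higher). Without both libraries numbered 1, chosen after seeing the data because they held the most neural RNA, members called higher were 4, other scavenger receptors lower 0, mannose and low-density lipoprotein receptor genes lower 1, and *Smad3* -1.32 (adjusted p = 0.0986). The causes of these differences were not tested.

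The replicate numbers were not treated as pairs in the main fit, under a rule that every same-numbered correlation be over 0.1. Same-numbered libraries deviated together with correlations of 0.166, 0.0183, 0.144 and 0.114. Control replicates 1, 3 and 4 correlated best with the mutant of the same number, and control replicate 2 with mutant replicate 1 (0.108). The labels do not say what a number marks, and these values cannot settle whether the mice were paired. With the number as a block, 886 genes were called higher and 1497 lower, members called higher were 6, with *Colec12* added (1.82, adjusted p = 0.0267), mannose and low-density lipoprotein receptor genes lower were 1, as *Lrp12* was not called (adjusted p = 0.0504), and coat and adaptor genes were 2 higher and 2 lower. Depth limits the result for *Marco*, while *Lyve1* and *Scarf1* had low counts together with a wide spread between mice.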
